A study of Mus musculus with 7 samples.

Results

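The genes described here encode the enzymes that place and remove methyl and acetyl groups on histones. They were chosen by name alone: every gene of the count table whose symbol belongs to the lysine demethylase (Kdm), lysine methyltransferase (Kmt), SET domain (Setd), Ezh, histone deacetylase (Hdac), sirtuin (Sirt), lysine acetyltransferase (Kat) or protein arginine methyltransferase (Prmt) families. The rule found 69 of the 24421 genes in the table. They were split by reaction into 26 methylation writers (5 Kmt, 11 Setd, 2 Ezh and 8 Prmt genes), 18 methylation erasers (Kdm), 7 acetylation writers (Kat) and 18 acetylation erasers (11 Hdac and 7 Sirt genes). The names are wider than histones: Setd3 methylates actin, Setd6 methylates a subunit of NF-kappaB, Hdac6 deacetylates tubulin, and Sirt3, Sirt4 and Sirt5 work in mitochondria.

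The 7 RNA libraries came from stromal cells sorted out of BALB/c mice. The 3 pCAF libraries came from podoplanin-positive (PDPN+) cancer-associated fibroblasts of mammary tumors, grown from 100000 4T1 cells with luciferase placed in the lower left mammary fat pad of females aged 8 weeks, and sorted as Ter119-, CD45-, EpCAM- and PDPN+. The 4 NMF libraries came from the normal mammary fat pad of untreated mice aged 12 weeks, sorted with the same negative markers and no podoplanin selection. The selection field of pCAF replicate 3 reads PDPN- against its title and source, by which it was kept in pCAF. The tumors and the fat pads were dissociated with collagenases of different types, so digestion, sort gate, labelled age and tumor cannot be told apart between the groups; the labels give different ages although the series' own design text describes the mice as matched for age. Replicates are labelled biological with no animal named, and p-values then cover only the spread among the libraries, which may be technical.

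Histone methylation is read by position: methyl groups on lysine 4 of histone H3, placed by Kmt2 and Setd1 enzymes and removed by Kdm5 and Kdm1 enzymes, mark promoters and enhancers in use, while those on lysine 27, placed by Ezh1 or Ezh2 within Polycomb repressive complex 2 and removed by Kdm6 enzymes, mark silenced genes. Acetylation, placed by Kat enzymes and removed by Hdac and Sirt enzymes, loosens chromatin and is bound by bromodomain proteins. In fibroblasts of tumors such enzymes are studied as possible keepers of an activated state, since that state can outlast the signals that set it off. Only their messenger RNA was measured here, not their protein, activity or the marks themselves.

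Total counts were 1885039 to 2184389 in pCAF and 2223198 to 4990070 in NMF, the deepest library being NMF replicate 4. In pCAF replicate 1, 11090 genes had a count, against 13222 to 14353 in the other 6 libraries. Levels are given as CPM, counts scaled to a common library size; correlations of log2 CPM were 0.83 to 0.97 within pCAF, 0.89 to 0.97 within NMF and 0.62 to 0.74 between groups. Fibroblast markers were abundant in every library, with a summed level of 71048 to 82139 CPM in pCAF and 22915 to 42414 in NMF. NMF also held other cells: the 12 blood endothelial markers summed to 2247 to 3567 CPM there and to 126.4 to 283.9 in pCAF, none of the 12 being at 0 in all pCAF libraries and 7 being at 0 in pCAF replicate 1. The 7 adipocyte markers summed to 1847 to 16020 CPM in NMF and 1.66 to 59.3 in pCAF, with Plin1, Lep, Cidec and Cd36 at 0 in pCAF. The 4 Schwann cell markers summed to 138.3 to 664.7 CPM in NMF and 0 to 3.38 in pCAF, with Sox10 at 0. Ranges of the summed pericyte (216.3 to 358.6 against 345.7 to 522.6 CPM), epithelial (72.6 to 231.1 against 62.9 to 319.8) and immune markers (26.6 to 56.3 against 18.3 to 164.7) overlapped between pCAF and NMF. Single markers in these lists still differed by the test described below. Of 6 tested pericyte markers, Rgs5 and Notch3 were lower in pCAF and Des was higher. Epcam and Cdh1 were lower among 5 tested epithelial markers, and Ptprc and Cd68 among 5 tested immune markers, with 0 higher in either list. In such bulk samples fewer cells of a type and less RNA per cell cannot be told apart, which applies to every difference below, and the part of these cells in the enzyme differences was not tested.

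Most of the tested histone enzymes did not pass the test. Of 62 members with enough counts to test, 3 rose in pCAF (Kdm5b, Ezh2 and Prmt1) and 9 fell (Ezh1, Kmt2a, Sirt3, Kmt2b, Hdac11, Kdm3b, Hdac4, Kmt2e and Setd1b) by edgeR's quasi-likelihood test at an adjusted p under 0.05 over all genes. That is 19.4% of the tested members, against 28.4% of the 10535 genes tested. Upward calls made up 4.84% of members against 14.3% of all genes, and downward calls 14.5% of members against 14.2% of all genes. The fitted log2 change was negative for 39 members and positive for 23, from -2.59 to 2.13, with a median of -0.38 beside -0.02 for all genes. Upward calls thus made up a smaller share than in the background and downward calls a similar one; these shares were not tested. The groups did not overlap for 27 members (43.5%), 7 of them higher and 20 lower in pCAF, against 40.4% of all genes.

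**Figure D1:**
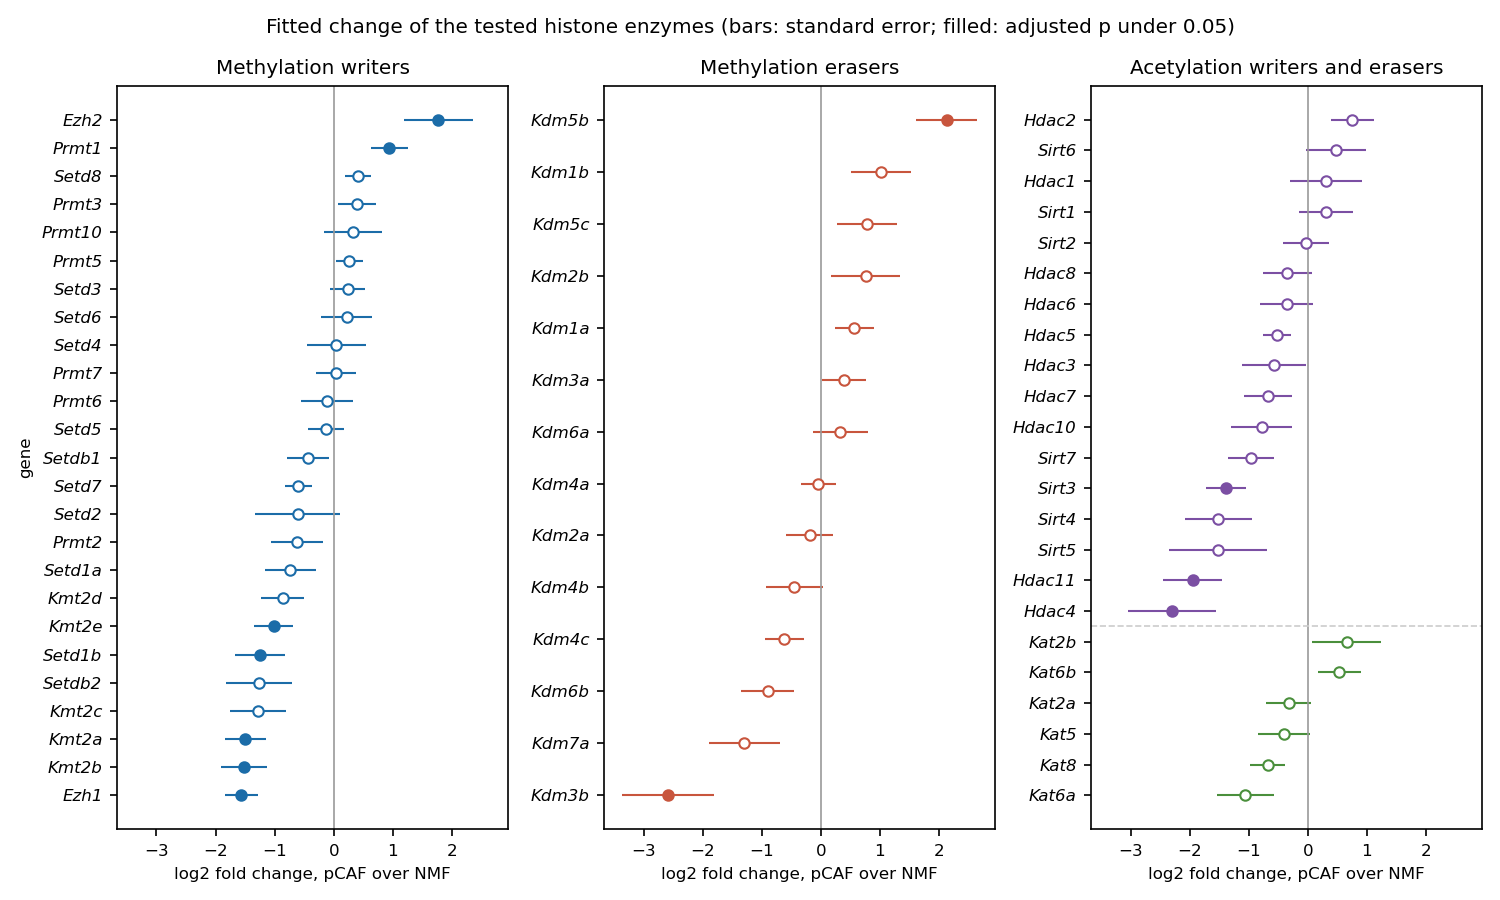
Fitted log2 fold change of pCAF over NMF (x axis) for each of the 62 tested members (y axis), by reaction; bars are the standard error and filled points have an adjusted p under 0.05. Filled points are 3 on the right of 0 (Kdm5b, Ezh2 and Prmt1) and 9 on the left, and all 5 Kmt genes lie on the left.

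These counts differed without the libraries that stood apart, pCAF replicate 1 and NMF replicate 4. Among tested members, pCAF replicate 1 was over 2-fold below the mean of the other pCAF libraries for 18 and over 2-fold above it for 8, or 29.0% and 12.9%, close to the 30.2% and 16.9% of all tested genes. For NMF replicate 4 the same counts were 6 below and 4 above (9.68% and 6.45%, against 13.5% and 8.41% of all genes). Without pCAF replicate 1, 5 members rose and 16 fell of 63, against 18.3% and 19.8% of all genes. Without both libraries, 9 rose and 20 fell of 62, against 25.9% and 26.9% of all genes. All 12 members called with every library were called in the same direction in both of these fits, which called larger shares of all genes. Only 2 of the 12, Ezh1 and Kmt2a, kept their call in all 17 alternative settings. Members called only in the smaller sets are described below with both values, since the sets differ in which libraries they hold. Of these, Kdm1a, Kdm3a, Kdm7a, Setd3 and Setd8 were called in 1 of the 17 alternative settings, the fit without both. Both libraries were picked because they differed from their groups in these same data. Leaving them out narrows the spread within groups, so adjusted p from the smaller sets can be too small. Those values are descriptions.

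**Figure D2:**
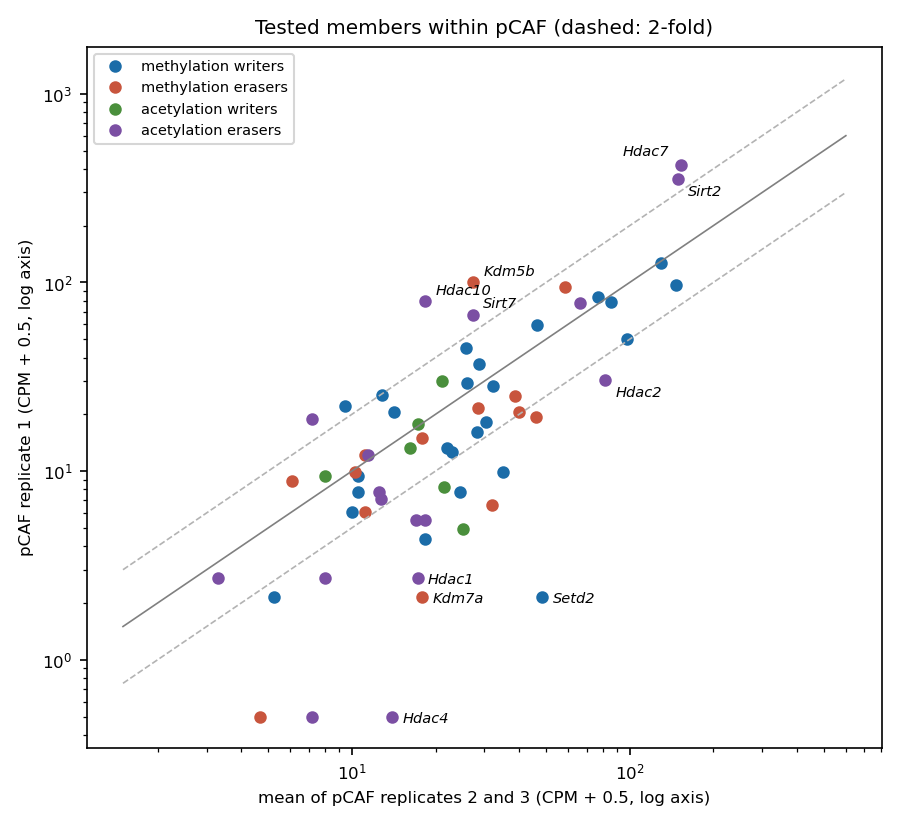
Level of each tested member in pCAF replicate 1 (y axis) against the mean of pCAF replicates 2 and 3 (x axis), in CPM with 0.5 added on log axes; the solid line is equality and the dashed lines are 2-fold. Hdac7, Sirt2, Hdac10, Kdm5b and Sirt7 lie above the upper dashed line, and Setd2, Hdac1, Hdac4 and Kdm7a lie below the lower one.

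The promoters of 5 called members are shown so that the genes the results turn on can be seen beside their values; 57 members had RefSeq entries on GRCm38.p6, with 77 windows of 300 bases from 250 before to 50 after a transcription start. Capitals mark matches on either strand to 3 kinds of motif: E2F (TTTCGCGC, TTTGGCGC or TTTCCCGC) and the hypoxia response core (ACGTG or GCGTG), for the proliferation and hypoxia genes described below, and RUNX (TGTGGT), since the series' title names a RUNX factor. The Prmt1 window holds CACGTG, which reads the same on both strands and so counts as 2 overlapping matches to ACGTG.
Ezh2 (chr6:47594981-47595280, minus strand): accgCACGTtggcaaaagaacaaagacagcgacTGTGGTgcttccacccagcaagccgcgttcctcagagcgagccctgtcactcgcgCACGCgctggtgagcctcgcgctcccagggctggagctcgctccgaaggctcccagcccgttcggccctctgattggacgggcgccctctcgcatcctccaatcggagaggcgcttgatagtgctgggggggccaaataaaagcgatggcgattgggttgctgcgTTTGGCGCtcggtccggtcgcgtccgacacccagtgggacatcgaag
Ezh1 (chr11:101226414-101226713, minus strand): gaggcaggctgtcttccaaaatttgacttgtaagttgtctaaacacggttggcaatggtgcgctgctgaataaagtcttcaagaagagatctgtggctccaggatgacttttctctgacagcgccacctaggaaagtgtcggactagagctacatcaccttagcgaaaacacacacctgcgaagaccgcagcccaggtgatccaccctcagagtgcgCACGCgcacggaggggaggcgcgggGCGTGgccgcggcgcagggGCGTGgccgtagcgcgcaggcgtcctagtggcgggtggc
Kmt2a (chr9:44881240-44881539, minus strand): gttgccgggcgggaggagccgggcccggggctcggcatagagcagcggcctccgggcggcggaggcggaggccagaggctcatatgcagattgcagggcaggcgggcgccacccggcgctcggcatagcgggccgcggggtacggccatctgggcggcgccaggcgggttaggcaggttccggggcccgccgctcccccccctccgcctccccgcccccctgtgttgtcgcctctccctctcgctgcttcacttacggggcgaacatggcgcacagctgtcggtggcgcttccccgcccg
Kdm5b (chr1:134559928-134560227, plus strand): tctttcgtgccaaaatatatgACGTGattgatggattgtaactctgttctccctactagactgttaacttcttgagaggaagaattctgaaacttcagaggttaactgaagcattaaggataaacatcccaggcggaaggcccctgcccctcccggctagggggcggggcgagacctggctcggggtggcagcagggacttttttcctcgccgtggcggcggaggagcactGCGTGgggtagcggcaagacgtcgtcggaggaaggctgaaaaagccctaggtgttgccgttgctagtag
Prmt1 (chr7:44986371-44986670, minus strand): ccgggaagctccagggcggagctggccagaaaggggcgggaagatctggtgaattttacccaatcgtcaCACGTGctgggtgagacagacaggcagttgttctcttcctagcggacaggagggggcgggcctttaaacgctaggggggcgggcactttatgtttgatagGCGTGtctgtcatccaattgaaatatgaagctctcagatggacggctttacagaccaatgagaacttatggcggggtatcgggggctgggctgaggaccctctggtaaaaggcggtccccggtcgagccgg

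These windows were rich in CpG, with 31 in Ezh2, 23 in Ezh1, 36 in Kmt2a, 17 in Kdm5b and 17 in Prmt1, and a median of 21 over the 77 member windows beside 7 over all 32851 promoter windows. Only 10 member windows lay below the median of all. An E2F motif stood 4 bases into the Ezh2 transcript; it was present in 2 of 77 member windows (2.6%) and in 1.84% of all windows. GCGTG was present in 40 member windows (51.9%) and 32.4% of all windows, and matched 3 times in the Ezh1 window. ACGTG was present in 18 member windows (23.4%, against 19.6%) and TGTGGT in 12 (15.6%, against 16.8%). All of these motifs except TGTGGT hold a CpG. The Kmt2a window held none of these letters. A match describes the letters only; no binding or methylation was measured in these libraries.

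Among the methylation writers, the Ezh pair moved in opposite directions. Ezh1 and Ezh2 are alternative catalytic subunits of Polycomb repressive complex 2; Ezh2 is known from dividing cells and Ezh1 from resting ones. Ezh2 (chr6:47530139-47595341 in mm10) stood at 28.8, 21.4 and 29.4 CPM in the 3 pCAF libraries, from 52, 38 and 53 counts. In NMF it stood at 9.66, 5.49, 14.4 and 1.87 CPM, from 25, 13, 41 and 10 counts. The lowest pCAF library was above the highest NMF library, with a mean of 26.5 ± 4.46 CPM (SD, n = 3) against 7.86 ± 5.42 (n = 4). The fitted rise was 3.42-fold (log2 1.77, SE 0.58, adjusted p = 0.0437), and 2.52-fold without the 2 libraries that stood apart (adjusted p = 0.00443). The call was lost without NMF replicate 1 (adjusted p = 0.0838), NMF replicate 2 (0.121), pCAF replicate 2 (0.0675) or pCAF replicate 3 (0.105). Over all 17 alternative settings, the Ezh2 call was kept in 9.

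Ezh1 (chr11:101191115-101226463) stood at 36.6, 30.4 and 26.1 CPM in pCAF and at 102, 95.4, 69.0 and 101 in NMF. The lowest NMF library was above the highest pCAF library, and the fall was 2.96-fold (log2 -1.56, SE 0.28, adjusted p = 0.0023). Ezh1 had the smallest adjusted p of all members and kept its call in all 17 alternative settings, with adjusted p from 2.64e-06 to 0.0148. Within a library, the ratio of Ezh2 to Ezh1 counts was 0.788, 0.704 and 1.13 in pCAF and 0.0943, 0.0575, 0.209 and 0.0186 in NMF, with no overlap between groups.

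Proliferation genes differed between the groups in the same direction as Ezh2. Of 17 tested proliferation genes 10 rose and 0 fell, beside 14.3% and 14.2% of all genes. Their summed level was 538.5 to 980.1 CPM in pCAF and 141.7 to 339.3 in NMF. The proliferation antigen gene Mki67 stood at 52.4 ± 5.68 CPM (n = 3) against 1.87 ± 1.35 (n = 4; adjusted p = 0.000113), while Cdk1, with 0 counts in pCAF and 2 over the NMF libraries, could not be compared. The part of dividing cells in the Ezh2 difference was not tested.

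All 5 Kmt genes had lower fitted levels in pCAF, as did 5353 of the 10535 genes tested. Of the 5 Kmt genes, 3 fell, beside 14.2% of all genes. The genes, Kmt2a to Kmt2e, are relatives of the fly gene trithorax; Kmt2a and Kmt2b act mainly at promoters, Kmt2c and Kmt2d at enhancers, and Kmt2e has little or no catalytic activity of its own. Their log2 changes ran from -1.52 to -0.87 (median -1.28). Without pCAF replicate 1 all 5 passed the test, beside 19.8% of all genes called lower. They also did so without both libraries that stood apart, beside 26.9%.

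Kmt2a (chr9:44803355-44881296), the gene rearranged in mixed-lineage leukemia, stood at 17.8, 32.1 and 27.7 CPM in pCAF and 88.8, 93.3, 64.1 and 46.5 in NMF. All NMF libraries lay above all pCAF libraries, with NMF replicate 4 the nearest to them, and the fall was 2.82-fold (log2 -1.50, SE 0.35, adjusted p = 0.0104). It kept its call in all 17 alternative settings, with adjusted p from 4.29e-05 to 0.035. Kmt2b (chr7:30568858-30588726) stood at 7.21, 10.1 and 9.98 CPM in pCAF and 24.3, 23.6, 19.0 and 37.2 in NMF. Its fall was 2.86-fold (log2 -1.52, SE 0.39, adjusted p = 0.0148), again with no overlap.

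Kmt2e (chr5:23434441-23504235) stood at 12.2, 20.8 and 23.8 CPM in pCAF and 31.3, 45.2, 36.3 and 40.5 in NMF, a fall of 2.02-fold (log2 -1.01, SE 0.33, adjusted p = 0.0432). The groups did not overlap, but the call was lost without any single library other than pCAF replicate 1, with adjusted p from 0.0605 without pCAF replicate 3 to 0.115 without NMF replicate 2. Its last exon meets the opposite-strand gene Srpk2, and the strandedness of the counting was not given. Kmt2c stood at 3.88, 16.9 and 18.9 CPM in pCAF against 29.7, 31.7, 31.0 and 36.2 in NMF; the groups did not overlap, and adjusted p was 0.0654 with all libraries and 0.0153 (1.73-fold lower) without both that stood apart. Kmt2d stood at 20.0, 10.7 and 16.6 CPM against 29.7, 35.5, 31.7 and 18.7, where NMF replicate 4 fell inside the pCAF range. Its adjusted p was 0.107, and 0.00146 (2.37-fold lower) without both.

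Of the 11 SET domain genes, 1 passed the test (9.09%, beside 28.4% of all genes). Setd1b (chr5:123142193-123168629), which like Setd1a methylates lysine 4 of histone H3 across active promoters, stood at 9.43, 34.4 and 34.4 CPM in pCAF and 73.0, 66.3, 53.9 and 55.3 in NMF. The fall was 2.38-fold (log2 -1.25, SE 0.42, adjusted p = 0.048). All pCAF libraries lay below all NMF libraries, with pCAF replicate 1 the lowest, and the fall was 1.88-fold without both libraries that stood apart (adjusted p = 0.0019). The call was lost without any single library other than pCAF replicate 1, with adjusted p from 0.0598 without pCAF replicate 3 to 0.113 without NMF replicate 1. Its relative Setd1a stood at 7.21, 19.1 and 28.8 CPM against 26.6, 32.5, 35.9 and 27.8, with overlap and an adjusted p of 0.233; its 3' end meets Gm49388 and the opposite-strand gene 9430064I24Rik.

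Setd7, which adds a single methyl group to lysine 4 of histone H3 and to other proteins, stood at 83.2, 81.1 and 71.5 CPM in pCAF and 110, 133, 109 and 124 in NMF. The groups did not overlap, but the difference of 1.52-fold had an adjusted p of 0.0752, and 0.00764 without both libraries that stood apart. Setd8, now called Kmt5a, which methylates lysine 20 of histone H4 in dividing cells, stood at 127, 136 and 123 CPM against 99.3, 89.9, 97.9 and 98.4. It was higher in every pCAF library, by 1.33-fold with an adjusted p of 0.181, and 0.0413 without both.

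Setd3, the actin methyltransferase, stood at 49.9, 91.8 and 103 CPM in pCAF against 59.9, 76.4, 73.6 and 66.9 (adjusted p = 0.587, and 0.0405 without both, 1.38-fold higher). Setd2, which places the methylation of lysine 36 along transcribed genes, stood at 1.66, 45.1 and 51.0 CPM in pCAF and 39.4, 40.1, 43.0 and 75.8 in NMF. Its fitted log2 change was -0.61 (SE 0.71, adjusted p = 0.565) with all libraries and 0.22 (adjusted p = 0.373) without both that stood apart. The lysine 9 methyltransferase Setdb1 (whose 3' end meets the opposite-strand gene Cers2) had an adjusted p of 0.409 and its relative Setdb2 of 0.119.

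Of the 7 tested arginine methyltransferases, 1 passed the test (14.3%, beside 28.4% of all genes). Prmt1 (chr7:44975989-44986568), the main enzyme for asymmetric dimethylation of arginine, stood at 95.9, 135 and 157 CPM in pCAF and 52.1, 86.6, 85.9 and 45.8 in NMF. All pCAF libraries lay above all NMF libraries, and the rise was 1.92-fold (log2 0.94, SE 0.31, adjusted p = 0.0469). The call held without pCAF replicate 1 and was lost without any other single library, with adjusted p from 0.0569 without NMF replicate 3 to 0.152 without pCAF replicate 3. Over all 17 alternative settings, the Prmt1 call was kept in 6. Prmt5, the main enzyme for symmetric dimethylation, stood at 78.2, 88.4 and 82.0 CPM against 71.8, 67.1, 72.5 and 64.4, apart by 1.2-fold with an adjusted p of 0.416. Fitted changes of the Prmt family ran between log2 -0.62 for Prmt2 and 0.94 for Prmt1.

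**Figure D3:**
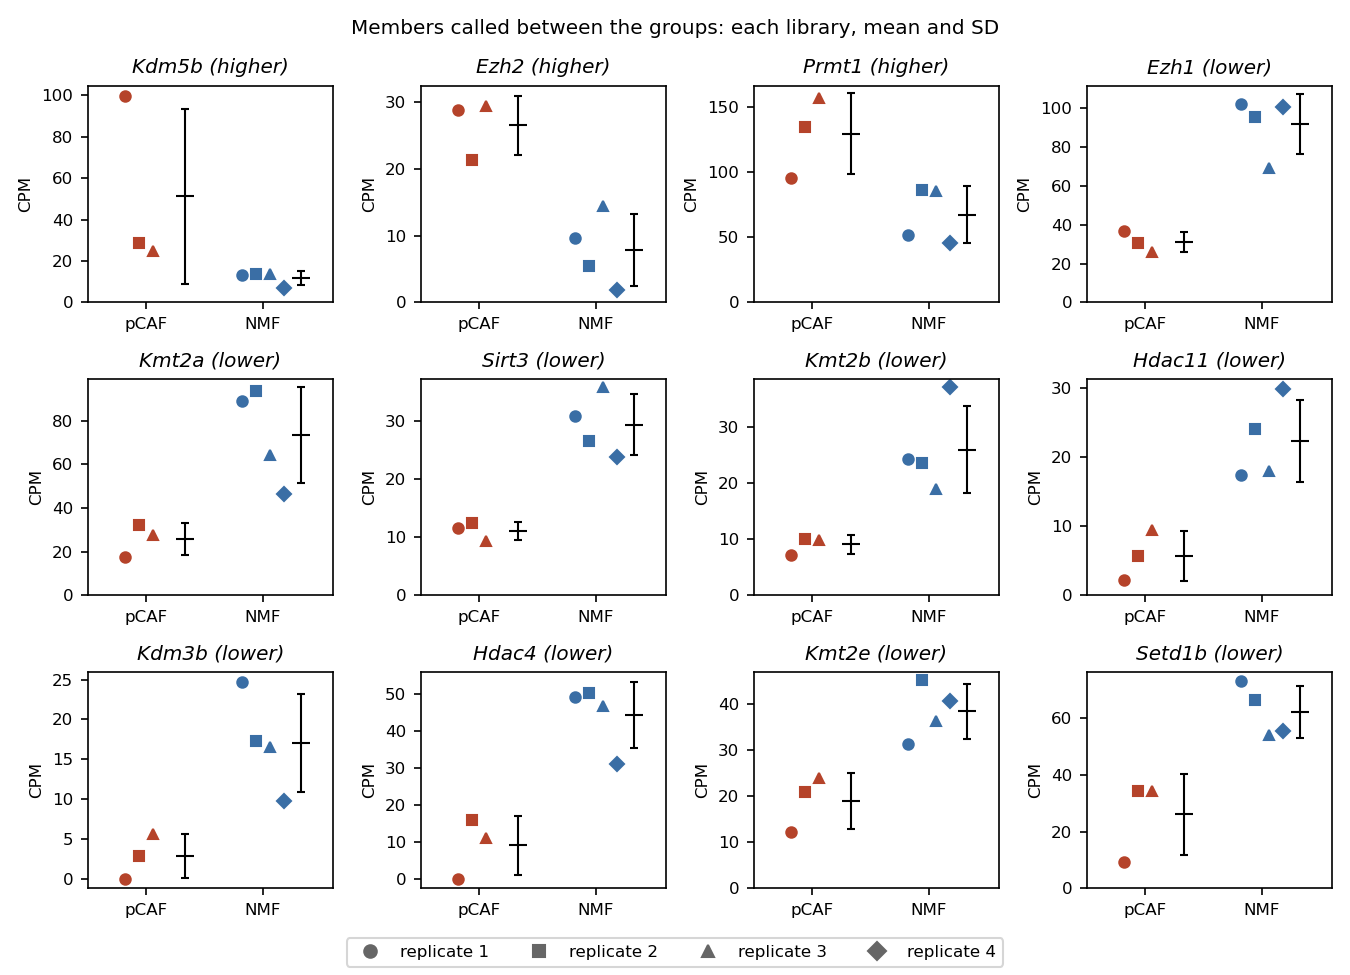
Level in CPM (y axis) of the 12 called members in each pCAF and NMF library, with the mean and SD of each group beside the points and the replicate number as the marker shape. In each panel the groups do not overlap, and Kdm5b has 1 pCAF library, replicate 1, far above the rest.

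The methylation erasers were the 1 class with a positive median, at log2 0.15 over 14 tested genes. Of these, 1 rose and 1 fell (7.14% each), beside 14.3% and 14.2% of all genes. Kdm5b (chr1:134560171-134635285), a demethylase of lysine 4 of histone H3, had the largest rise of the tested members. It stood at 99.8, 28.7 and 24.9 CPM in pCAF and 13.1, 13.5, 13.7 and 6.72 in NMF, and the groups did not overlap. The fitted rise was 4.38-fold (log2 2.13, SE 0.52, adjusted p = 0.0121). Without pCAF replicate 1 the rise was 2.3-fold (adjusted p = 0.0238), and without NMF replicate 4 as well it was 1.98-fold (adjusted p = 0.00571). Its relative Kdm5c stood at 5.55, 12.4 and 8.87 CPM against 5.02, 7.18, 3.87 and 4.67, with overlapping groups and an adjusted p of 0.278.

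The lysine 9 demethylases Kdm3a and Kdm3b did not move together. Kdm3b had the largest fitted fall of the tested members and stood at 0, 2.82 and 5.54 CPM in pCAF and 24.7, 17.3, 16.5 and 9.71 in NMF. The pCAF values came from 0, 5 and 10 counts, so the size of the fall is uncertain. The groups did not overlap, and the fall was 6.01-fold (log2 -2.59, SE 0.78, adjusted p = 0.0312), or 4.64-fold without both libraries that stood apart (adjusted p = 0.000265). The fitted fall was 11.7-fold without pCAF replicate 3 (adjusted p = 0.0257), and the call was lost without NMF replicate 1 (0.0909), NMF replicate 2 (0.0739), NMF replicate 3 (0.0658) or pCAF replicate 2 (0.0824). Kdm3a (chr6:71588972-71632990), known as a target of hypoxia-inducible factor, stood at 20.0, 32.1 and 47.1 CPM in pCAF and 18.1, 28.7, 20.8 and 32.7 in NMF. The groups overlapped and the difference was 1.31-fold (log2 0.39, SE 0.37, adjusted p = 0.469). Without both libraries that stood apart Kdm3a was 1.75-fold higher (adjusted p = 0.0167), its only call in 17 alternative settings. Without pCAF replicate 1 alone its adjusted p was 0.13.

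Hypoxia-inducible genes stood higher in pCAF: 10 of 16 tested rose and 0 fell, beside 14.3% and 14.2% of all genes. Their summed level was 3274 to 4187 CPM in pCAF and 1012 to 1277 in NMF. Vegfa, the vascular growth factor, stood at 367 ± 54.9 CPM (n = 3) against 94.9 ± 21.3 (n = 4). Beside these, Kdm4b, another demethylase known to respond to low oxygen, stood at 6.1, 29.3 and 33.8 CPM against 30.1, 29.6, 36.3 and 29.9 (adjusted p = 0.527).

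Kdm6b, which removes lysine 27 methylation and is known from inflammatory responses, stood at 93.7, 68.7 and 47.1 CPM in pCAF and at 136, 175, 166 and 44.6 in NMF. NMF replicate 4 lay below all pCAF libraries while the other 3 lay above them, and adjusted p was 0.167 with all libraries, 0.0248 without NMF replicate 4 and 1.5e-05 (2.76-fold lower) without both that stood apart. Its relative Kdm6a stood at 11.7, 10.1 and 11.1 CPM against 5.79, 8.02, 6.34 and 14.2 (adjusted p = 0.636). Kdm7a, a demethylase of lysines 9 and 27, stood at 1.66, 19.1 and 15.5 CPM against 34.0, 32.9, 33.4 and 19.1 (adjusted p = 0.137, and 0.00478 without both, 1.94-fold lower).

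Kdm1a, the first histone demethylase to be described, stood at 24.4, 40.6 and 36.0 CPM against 27.8, 27.4, 18.7 and 17.4, with overlap (adjusted p = 0.232, and 0.0421 without both, 1.55-fold higher). Kdm2a, an eraser of lysine 36 methylation, stood at 18.9, 34.9 and 56.0 CPM against 37.9, 40.1, 28.5 and 59.8 (adjusted p = 0.768); near-identical copies of its 3' end occur elsewhere in the genome, so its reads are uncertain. Of the other tested Kdm genes, Kdm1b and Kdm2b had no overlap between groups and were higher in pCAF, and Kdm4c was lower, with adjusted p of 0.164, 0.366 and 0.189. The 3' ends of Kdm1b and Kdm2b meet the opposite-strand genes Dek and Rnf34, and that of Kdm2b has a near-identical copy in Gm12397. Kdm4a had a log2 change of -0.04 (SE 0.30).

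None of the 6 tested acetylation writers passed edgeR's test, which called 28.4% of all genes. Only 1 of them, Kat8, had an unadjusted p under 0.05. DESeq2 and limma-voom also called 0, and scaling by library totals called 1 lower. Kat8, which acetylates lysine 16 of histone H4, stood at 17.2, 17.5 and 16.1 CPM in pCAF and 23.2, 30.0, 28.2 and 27.3 in NMF. No pCAF library reached the lowest NMF library, with a difference of 1.6-fold and an adjusted p of 0.118, and 0.039 without both libraries that stood apart. The 3' end of Kat8 meets the opposite-strand gene Prss8 and has a near-identical copy in Gm8523, which leaves its reads uncertain. Kat2b, also named PCAF for its binding to p300 and CBP and unrelated to the group label pCAF, stood at 4.44, 16.9 and 32.1 CPM against 9.27, 11.0, 8.1 and 16.4. The 3 pCAF libraries spanned the NMF range (adjusted p = 0.436); adjusted p was 0.0499 without pCAF replicate 1 and 0.00247 (2.58-fold higher) without both. Kat5, the catalytic subunit of the TIP60 complex, stood at 7.76, 27.6 and 14.4 CPM against 17.8, 20.3, 26.8 and 23.2 (adjusted p = 0.528); its 3' end meets the opposite-strand gene Rnaseh2c.

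The paralogs Kat6a and Kat6b, which acetylate histone H3 in complexes with Brpf proteins, had fitted changes of opposite sign, log2 -1.06 (SE 0.48) for Kat6a and 0.53 (SE 0.36) for Kat6b, neither past the test (adjusted p = 0.127 and 0.306). The ratio of Kat6a to Kat6b counts was 0.302, 0.275 and 0.471 in pCAF and 1.05, 0.893, 0.733 and 1.26 in NMF, with no overlap.

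Among the acetylation erasers, 3 of 17 tested fell (Sirt3, Hdac11 and Hdac4) and 0 rose. That was 17.6% lower, beside 14.2% lower and 14.3% higher among all genes. The median log2 change of the class was -0.58. The class I enzymes Hdac1 and Hdac2, which work in nuclear corepressor complexes, did not pass the test. Hdac1 (chr4:129516104-129542713) stood at 2.22, 12.4 and 21.1 CPM in pCAF and 10.8, 9.29, 10.9 and 7.47 in NMF. The pCAF values lay on both sides of the NMF values, with a log2 change of 0.31 (SE 0.61, adjusted p = 0.746) that turned to -0.38 without pCAF replicate 3, to -0.11 with a replicate block and to -0.09 in limma-voom. Hdac2 stood at 29.9, 74.3 and 88.1 CPM against 41.7, 37.2, 33.4 and 39.4; pCAF replicate 1 lay below every NMF library and the other pCAF libraries above them (adjusted p = 0.14). Without pCAF replicate 1 Hdac2 was 2.13-fold higher (adjusted p = 0.00336), and without both libraries that stood apart 2.16-fold (adjusted p = 0.000153). Hdac3, the enzyme of the NCoR complex, had an adjusted p of 0.464.

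Of the class IIa enzymes, which shuttle between nucleus and cytoplasm and bind MEF2 factors, Hdac4 fell and Hdac5 and Hdac7 did not pass the test. Hdac4 (chr1:91928779-92195699) stood at 0, 15.8 and 11.1 CPM in pCAF and 49.0, 50.2, 46.8 and 31.0 in NMF. All pCAF libraries were below all NMF libraries, and the fall was 4.92-fold (log2 -2.30, SE 0.74, adjusted p = 0.0415), or 3.64-fold without both libraries that stood apart (adjusted p = 1.33e-05). The call was lost without NMF replicate 1 (0.0991), NMF replicate 2 (0.101), NMF replicate 3 (0.0885), NMF replicate 4 (0.0542) or pCAF replicate 3 (0.0807), and without pCAF replicate 2 the fitted fall was 7.87-fold.

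Hdac5 stood at 77.1, 59.1 and 72.1 CPM against 113, 95.8, 102 and 90.0, also without overlap. Its difference was 1.44-fold with an adjusted p of 0.123, reaching 0.0466 without pCAF replicate 1 and 0.0058 without both. Hdac7, known for its role in blood vessel endothelium, stood at 420, 179 and 125 CPM against 325, 345, 357 and 516. Here pCAF replicate 1 lay within the NMF range and the other pCAF libraries below it (adjusted p = 0.242); without pCAF replicate 1 Hdac7 was 2.55-fold lower (adjusted p = 0.00468). The endothelial marker Eng stood at 233.5, 95.2 and 56.5 CPM in the 3 pCAF libraries, in the order of Hdac7. The other 11 endothelial markers summed to 50.5, 63.1 and 69.8 CPM, in the opposite order, with 7 of them at 0 in pCAF replicate 1. Within these 11 the order was mixed. Tek stood at 19.4, 7.32 and 2.77 CPM, but Kdr at 16.6, 16.9 and 30.5 and Esam at 0, 14.65 and 17.2. Eng was set apart after the values were seen, and the part of endothelial RNA in the Hdac7 values was not tested. The 3' end of Hdac7 meets the opposite-strand gene Slc48a1.

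Hdac10, a deacetylase of polyamines, followed the same pattern at 79.3, 15.8 and 19.9 CPM in pCAF and 51.8, 58.3, 66.9 and 85.9 in NMF. Its adjusted p was 0.294 with all libraries and 0.00117 without pCAF replicate 1, where it was 3.7-fold lower. Hdac11 (chr6:91156665-91174692), the single class IV enzyme, which removes long fatty acyl groups, stood at 2.22, 5.63 and 9.42 CPM in pCAF and 17.4, 24.1, 17.9 and 29.9 in NMF. With no overlap between groups, the fall was 3.87-fold (log2 -1.95, SE 0.51, adjusted p = 0.0167); leaving out pCAF replicate 2 ended the call (adjusted p = 0.054). It overlaps the opposite-strand gene Gm44002 at its 3' end.

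Sirtuins are deacylases that use NAD, and 1 of 7 passed the test (14.3%, beside 28.4% of all genes). Sirt3 (chr7:140863666-140882309), the main mitochondrial deacetylase, stood at 11.7, 12.4 and 9.42 CPM in pCAF and 30.9, 26.6, 35.9 and 23.9 in NMF. All NMF libraries were above the pCAF values, and the fall was 2.62-fold (log2 -1.39, SE 0.34, adjusted p = 0.0117). Leaving out pCAF replicate 3 ended the call (adjusted p = 0.0535), and the 3' end meets the opposite-strand gene Ric8a. The other mitochondrial sirtuins did not pass the test. Sirt4 stood at 2.22, 2.25 and 3.33 CPM against 6.57, 7.6, 10.9 and 5.23, without overlap (adjusted p = 0.0695, 0.0441 without NMF replicate 4 and 0.0188 without both). Sirt5 stood at 0, 6.2 and 7.21 CPM against 10.4, 9.71, 7.74 and 23.2, also without overlap (adjusted p = 0.199), but 6 genes elsewhere have near-identical copies of its 3' end, so its reads are uncertain.

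Sirt7, a nucleolar sirtuin, stood at 67.1, 19.1 and 34.4 CPM in pCAF and 77.2, 82.3, 76.4 and 77.3 in NMF. Every pCAF library lay below the narrow NMF range, and adjusted p was 0.0861 with all libraries and 0.00205 (2.93-fold lower) without pCAF replicate 1. Sirt2, which deacetylates tubulin in the cytoplasm, stood at 353, 150 and 147 CPM against 176, 190, 174 and 344. The libraries that stand apart, pCAF replicate 1 and NMF replicate 4, were each the highest of their group (log2 change -0.03, SE 0.39, adjusted p = 0.966). Sirt1 and Sirt6, the nuclear sirtuins tied to gene silencing and DNA repair, had adjusted p of 0.664 and 0.529, and the log2 change of Sirt6 turned from 0.47 to -0.30 without both libraries that stood apart.

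Summed over all 69 members the level was 2310, 2037 and 2080 CPM in pCAF and 2513, 2681, 2571 and 2850 in NMF, or 2142 ± 146.6 (n = 3) against 2654 ± 148 (n = 4). The sum of methylation writers was 800.8, 958.2 and 1013 CPM against 1048, 1121, 1031 and 1090, with no overlap. Methylation erasers summed to 335, 346.4 and 345.9 CPM against 386.6, 455.6, 412.6 and 298.8. Acetylation writers summed to 81.5, 111.5 and 102 CPM against 101.6, 103, 108.8 and 134.1, so these last 2 classes overlapped.

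Acetylation erasers summed to 1093, 621.3 and 618.6 CPM in pCAF and 976.8, 1002, 1019 and 1327 in NMF. Hdac7 and Sirt2 alone made up 772.5, 329 and 271.6 CPM of these in pCAF and 500.6, 535, 530.5 and 859.8 in NMF. Leaving them out gave 320, 292.3 and 347 CPM in pCAF against 476.3, 466.6, 488.2 and 466.7 in NMF, with no overlap and with pCAF replicate 1 between the other pCAF libraries. Hdac7 and Sirt2 were set apart after these values were seen, and they held most of the sum in pCAF replicate 1. The lack of overlap without them is therefore only a description. Writers and erasers taken as wholes had similar calls: 2 higher and 5 lower of 31 tested writers (median log2 change -0.41), and 1 higher and 4 lower of 31 tested erasers (median -0.35). Without both libraries that stood apart these counts were 5 and 9 of writers and 4 and 11 of erasers. By class, 4 of 25 methylation writers were then higher and 8 lower, and 3 of 14 methylation erasers each way. Of 6 acetylation writers 1 was higher and 1 lower, and of 17 acetylation erasers 1 was higher and 8 lower. In that smaller fit 25.9% of all genes were called higher and 26.9% lower, up from 14.3% and 14.2% with every library.

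The ratio of related enzymes within 1 library does not depend on library size. Over 14 pairs, picked after their values were seen, 5 did not overlap between groups: Ezh2 to Ezh1, Kdm3a to Kdm3b, Hdac4 to Hdac5, Kat6a to Kat6b and Setdb1 to Setdb2. The ratio of Kdm3a to Kdm3b counts was 11.4 and 8.5 in pCAF replicates 2 and 3 (replicate 1 had no Kdm3b count) and 0.734, 1.66, 1.26 and 3.37 in NMF. The ratio of Hdac4 to Hdac5 was 0, 0.267 and 0.154 in pCAF and 0.433, 0.524, 0.459 and 0.344 in NMF. A two-sided exact permutation test of the log2 ratios cannot go below p = 0.0286 with 3 against 4 libraries, which these 2 pairs and Kat6a to Kat6b reached (each 0.133 after Benjamini-Hochberg adjustment over the 14 pairs); Ezh2 to Ezh1 had an exact p of 0.0571 (adjusted 0.2). No pair therefore passed the threshold after adjustment. Kmt2a to Kmt2b, both of which fell, had ratios of 2.46, 3.17 and 2.78 in pCAF and 3.65, 3.95, 3.37 and 1.25 in NMF.

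**Figure D4:**
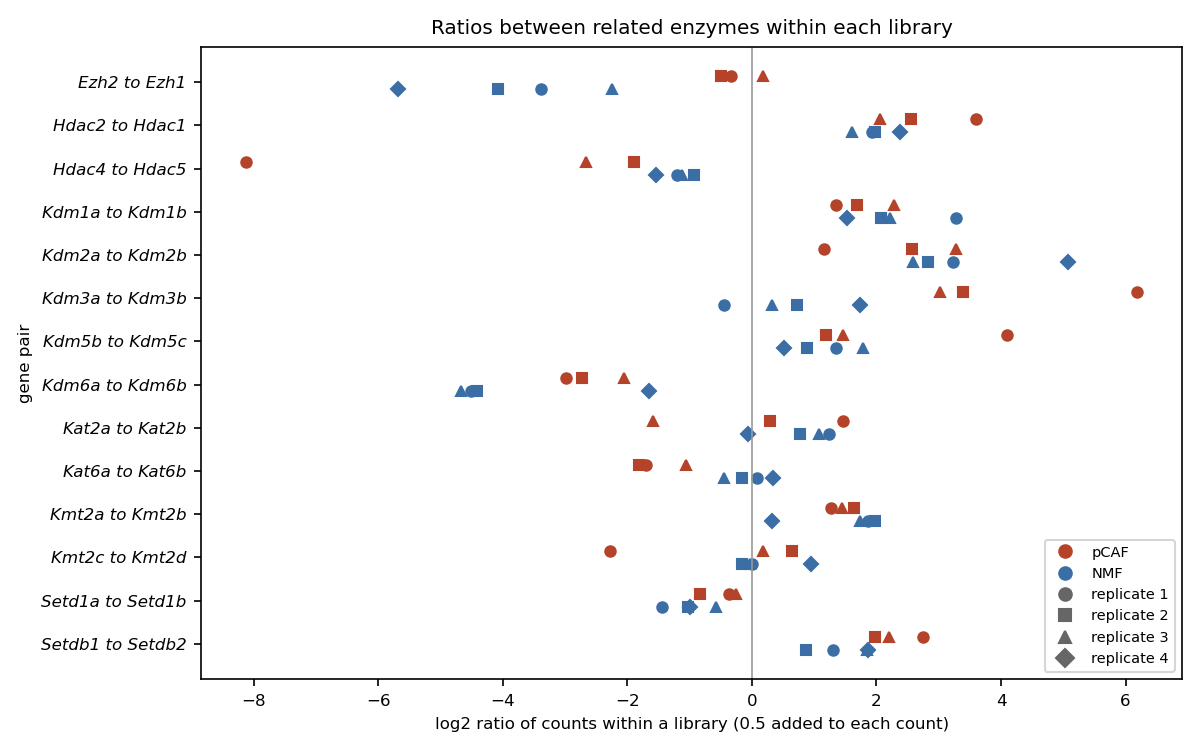
Log2 ratio of the counts of 2 related enzymes within each library (x axis, 0.5 added to each count) for 14 pairs (y axis), pCAF above and NMF below each line, with the replicate number as the marker shape. The pCAF and NMF points do not overlap for Ezh2 to Ezh1, Hdac4 to Hdac5, Kdm3a to Kdm3b, Kat6a to Kat6b and Setdb1 to Setdb2.

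Of the 7 members with too few counts to test, Kdm5d (on the Y chromosome) and Prmt8 were at 0 in every library. Hdac9, the remaining class IIa enzyme, had 28 counts over the pCAF libraries and 5 over NMF, a ratio of 13.7 for pCAF over NMF per effective library size (95% exact counting interval 5.22 to 45.4), and an adjusted p of 0.0428 when no gene was filtered out. Its direction was opposite to that of Hdac4. Kdm5a, a relative of Kdm5b, had 2 counts in pCAF and 46 in NMF, a ratio of 9.41 for NMF over pCAF (interval 2.46 to 80; adjusted p = 0.114 without the filter). Kdm8, Kat7 and Kdm4d had 8, 4 and 1 counts in pCAF and 16, 4 and 2 in NMF, too few to show a difference at this depth. These intervals cover counting error only.

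Partners of these enzymes were called for 2 of 7 tested in the Polycomb list, 1 of 10 for the Kmt2 and Setd1 enzymes, 1 of 20 for the corepressors and 4 of 19 for the Kat enzymes, beside 28.4% of all genes. Without both libraries that stood apart the calls were 2 higher and 1 lower, 1 higher and 2 lower, 2 higher and 5 lower, and 3 higher and 5 lower in the same order. All genes then gave 25.9% higher and 26.9% lower. The corepressors had 2 higher and 3 lower without pCAF replicate 1 alone, beside 18.3% and 19.8% of all genes. Polycomb repressive complex 2 needs Suz12 and Eed besides Ezh1 or Ezh2, and neither passed the test (adjusted p = 0.202 and 0.301). Of 7 tested partners in that list, Phf1, an accessory subunit, fell 3.5-fold (11.1 ± 1.03 CPM, n = 3, against 39.3 ± 9.25, n = 4; adjusted p = 0.00324), and Rbbp7, a histone-binding subunit, rose 2.44-fold (166 ± 72.2 against 67.8 ± 15.3; adjusted p = 0.0139, 0.0568 without NMF replicate 1). Of 10 tested partners of the Kmt2 and Setd1 enzymes, 1 fell: Cxxc1, which binds unmethylated CpG, by 2.43-fold (adjusted p = 0.0354). That call was lost without NMF replicate 1 (0.0597), NMF replicate 3 (0.0514), pCAF replicate 2 (0.0985) or pCAF replicate 3 (0.108).

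Among 20 tested corepressor partners of Hdac1, Hdac2 and Hdac3, 1 fell: Chd4, the remodeler of the NuRD complex, at 146 ± 56.1 CPM (n = 3) against 327 ± 52.2 (n = 4), 2.24-fold (adjusted p = 0.0223, 0.0646 without NMF replicate 1). Among 19 tested partners of the Kat enzymes, 1 rose (Msl2) and 3 fell (Ing4, Brpf1 and Mcrs1), with adjusted p from 0.0213 to 0.0482. Each of these 4 calls was lost without several single libraries: Ing4 without NMF replicate 2 or 3 or pCAF replicate 2 or 3, Brpf1 and Mcrs1 without NMF replicate 1, 2 or 3 or pCAF replicate 2 or 3, and Msl2 without NMF replicate 1, 3 or 4 or any pCAF replicate.

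With all libraries, 6 of 13 tested bromodomain and chromodomain genes, which read the marks, fell and 0 rose. That stood beside 14.2% and 14.3% of all genes, and the median log2 change of these readers was -1.20. Without both libraries that stood apart, 7 of the readers were lower and 1 (Brd7) was higher, beside 26.9% and 25.9% of all genes. Their summed level was 271.2 to 495.7 CPM in pCAF and 835 to 919.6 in NMF. The Polycomb reader Cbx7 fell 8.16-fold (7.26 ± 2.63 CPM, n = 3, against 59.5 ± 14.3, n = 4; adjusted p = 0.000369), and its relative Cbx6 fell 3.27-fold (66.8 ± 19.9 against 218 ± 26.1; adjusted p = 0.00183). Brd2, which binds acetylated histones, fell 2.77-fold (70.1 ± 7.42 against 194 ± 61.1; adjusted p = 0.00773). Brd9 fell 1.9-fold (adjusted p = 0.0243), a call lost without NMF replicate 3 (0.0658), pCAF replicate 2 (0.0611) or pCAF replicate 3 (0.0767). Cbx7, Cbx6 and Brd2 kept their calls when any single library was left out. The share called in such a list was not compared with the enzymes by a test.

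Writers and erasers outside the naming rule had 2 downward calls each and 0 upward ones with all libraries, beside 14.2% and 14.3% of all genes. The writers had 1 higher and 5 lower without pCAF replicate 1 and 3 higher and 6 lower without both libraries that stood apart, and the erasers 1 higher and 2 lower in each of these fits. All genes gave 18.3% higher and 19.8% lower in the first of these fits, and 25.9% and 26.9% in the second. Of 19 tested writers, Mecom, a PR domain protein, stood at 0, 1.13 and 1.11 CPM in pCAF against 15.8, 11.8, 7.39 and 17.4 in NMF (fitted log2 change -4.06, adjusted p = 0.00334, and -3.33 without both libraries that stood apart), and the coactivator Ncoa1 fell 2.88-fold (adjusted p = 0.0203, 0.0751 without pCAF replicate 2). Of 5 tested erasers, the lysine 9 demethylase Hr had 1 count over the pCAF libraries and 145 over NMF, a ratio of 59.3 (interval 10.5 to 2360; adjusted p = 0.00181), and Phf2 fell 2.82-fold (adjusted p = 0.0192, 0.0535 without NMF replicate 2). Genes of cofactor metabolism had 3 upward calls of 13 tested and 0 downward, beside 14.3% and 14.2% of all genes. Without both libraries that stood apart they had 5 upward and 0 downward, beside 25.9% and 26.9%. The genes that make S-adenosylmethionine (Mat2a and Mat2b) and acetyl-CoA (Acly and Acss2) had no call with all libraries. Ahcyl1, a relative of Ahcy, rose 2.89-fold (adjusted p = 0.0034), Nnmt, which spends S-adenosylmethionine on nicotinamide, rose 2.49-fold (0.0164), and Ahcy, which clears the product of methylation, rose 3.18-fold (0.031). Ahcyl1 kept its call when any single library was left out; that of Nnmt was lost without NMF replicate 1 (0.0571), NMF replicate 2 (0.0554) or pCAF replicate 2 (0.0585), and that of Ahcy without NMF replicate 1 (0.068), NMF replicate 2 (0.0817), pCAF replicate 2 (0.128) or pCAF replicate 3 (0.0768).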

How the data were processed

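The deposited table gives unscaled counts for 24421 gene symbols; 7867 had no count in any library. Per the labels' protocols, sequencing was of 3' ends of polyadenylated RNA. The submitters' processing notes name STAR 2.4.2a, bcl2fastq, HTSeq and mm10 with no roles; the gene annotation, whether strand was used, and how reads with several matches or molecular identifiers were handled are not given in the sources used here. A count on a 3' end depends on which end is annotated, so levels are compared between groups, not between genes.

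The groups were compared with edgeR 4.0.16 (R 4.3.3) after filterByExpr, which kept 10535 genes, and TMM scaling, by its robust quasi-likelihood test; p-values are two-sided and adjusted by Benjamini-Hochberg over those genes, with calls made under 0.05. CPM values use TMM-scaled library sizes; means are ± SD (n = 3 pCAF, n = 4 NMF), and the SE of a log2 fold change is its size over the root of F. Total counts of 1885039 to 4990070 limit what can be seen of genes with few counts. Alternatives were other scalings, DESeq2 1.42.0, limma 3.58.1 (voom), other filters, thinning to equal depth, a replicate block and leaving out libraries. Same-numbered libraries did not deviate together (correlations -0.09, 0.08 and -0.01), so the numbers were not taken to pair them.

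Named genes were Kdm3a, Ezh2 and Hdac1, every called member, the 2 tested members of each class with the highest mean CPM, close relatives of called members, members whose call turned under an alternative, and up to 4 called genes of each partner list. A few others were named after their values were seen (among them Setd1a, Setdb1, Setdb2, Kdm1b, Kdm2b, Kdm4a, Kdm4b, Kdm4c, Kdm6a, Kat6a, Kat6b, Hdac3, Sirt1, Sirt5 and Sirt6). The members, lists and tests were chosen with earlier results of these data known, so counts over lists are descriptions.

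Positions are from GENCODE M21 on mm10, which placed all 69 members; 12 had an opposite-strand and 2 a same-strand gene within 1000 bases of the 3' end, and 6 had a near-identical 3' end elsewhere (blastn 2.17.0; at least 80 of the last 300 bases at 95% identity). Promoters are from RefSeq on GRCm38.p6.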

Additional observations from a re-analysis of the deposited data

Results flagged for a closer look

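Within the 4 NMF libraries, 11 of 57 named genes had 1 library farther from the rest than Dixon's 95% criterion for a group of 4 allows. The 57 included genes named because their call turned when libraries were left out, and all were measured in the same libraries. The chance rate of about 1 in 20 is therefore no benchmark for this count. NMF replicate 4 was the library apart for 8 of the 11. It was high for Hdac7 (516.19 CPM, others 324.84 to 356.94), Sirt2 (343.63, others 173.54 to 190.01), Setd2 (75.82, others 39.4 to 42.95), Ncoa1 (68.54, others 28.87 to 32.09) and Cxxc1 (181.9, others 66.29 to 76.48). It was low for Kdm5b (6.72, others 13.13 to 13.73), Kdm7a (19.05, others 32.93 to 33.99) and Brd2 (103.09, others 217.85 to 234.76). NMF replicate 2 was low for Setd8 (89.94 CPM, others 97.86 to 99.27) and high for Sirt7 (82.34, others 76.39 to 77.32), and NMF replicate 1 was low for Cbx6 (179.22, others 226.74 to 235.5). Of these genes Kdm5b, Ncoa1, Cxxc1, Brd2 and Cbx6 were called between the groups, and all kept the call without NMF replicate 4. Groups of 3, such as pCAF, were too small for this criterion.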

How the results depend on the processing

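Of 12 called members, 2 (Ezh1 and Kmt2a) kept their call in all 17 alternatives, and none changed sign in any of them. The rest kept it in 6 (Prmt1), 8 (Kmt2e), 9 (Ezh2, Setd1b), 11 (Hdac4), 12 (Kdm3b), 15 (Hdac11) or 16 (Kdm5b, Kmt2b, Sirt3). Beside 3 higher and 9 lower members, the count of higher members was 1 with library totals as scaling, 1 with upper quartile factors, 1 with libraries thinned to equal depth, 0 with the replicate block and 9 without both libraries that stood apart, and 1 to 5 when 1 library was left out. The count of lower members was 16 with library totals, 4 with the replicate block (Ezh1, Kdm6b, Kmt2a and Sirt3) and 20 without both libraries, and 5 to 16 when 1 library was left out. Library totals moved the median of all genes from -0.02 to -0.26 (log2) and that of members from -0.38 to -0.59. With the replicate block, where all genes gave 978 higher and 1023 lower, 9 of the 12 member calls were lost. Signs turned in at least 1 setting for 15 of the 62 tested members, none past the threshold with all libraries; among those described outside the naming rule were Sirt6 (-0.30 to 0.77 over all settings), Kdm4a (-0.27 to 0.08) and Kdm4b (-0.82 to 0.00). Of the 36 members named by that rule, 5 turned: Hdac1 (-0.09 in limma-voom, -0.11 with the block, and -0.38 to 0.80 when 1 library was left out), Kat2b (-0.07 to 1.10 when 1 library was left out), Kdm2a (-0.62 without pCAF replicate 3, 0.06 without NMF replicate 4, 0.12 without pCAF replicate 1, 0.35 without both), Setd2 (0.22 without both) and Sirt2 (0.03 thinned, 0.14 with the block, 0.30 without NMF replicate 4, 0.18 and 0.19 without pCAF replicates 2 and 3, -0.58 without pCAF replicate 1). The cause of these changes was not tested.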
